A study of Mus musculus with 33 samples.

Results

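The transcripts described here are 9 genes of the glucocorticoid system: the glucocorticoid receptor gene Nr3c1, the mineralocorticoid receptor gene Nr3c2, the cortisone and 11-dehydrocorticosterone reductase gene Hsd11b1, and 6 genes that respond to the hormone or to stress, Fkbp5, Sgk1, Tsc22d3, Zbtb16, Ddit4 and Cdkn1a. They were taken by symbol from the 23366 genes of the female and of the male count table, all 9 were found in both, and all 9 passed the filter on low counts (CPM, counts scaled to the size of the library, summing to at least 5 over the libraries of a sex). The samples were frontal cortex from approximately 1-month-old C57BL/6 offspring, 16 labelled female and 17 labelled male, profiled by RNA-Seq. Before and after birth, with their dams and by whole-body inhalation, the offspring had been exposed to filtered air (6 females, 6 males), to e-cigarette aerosol with nicotine at 13 to 16 mg/mL in the liquid (5 females, 6 males), or to e-cigarette aerosol without nicotine (5 females, 5 males). By their labels the groups differed in exposure alone and carried no engineered allele, and a litter gave a single pup by the study's methods. Females and males were sequenced in separate runs, so sex and run cannot be told apart.

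In the brain, corticosterone binds the mineralocorticoid receptor with high affinity and the glucocorticoid receptor as hormone levels rise. The ligand-bound glucocorticoid receptor leaves a chaperone complex, enters the nucleus and activates genes such as Fkbp5, Sgk1, Tsc22d3 and Ddit4, often through paired copies of the hexamer AGAACA that face each other 3 bases apart. The protein made from Fkbp5 lowers the receptor's affinity for its hormone and so closes a feedback loop, whereas 11β-hydroxysteroid dehydrogenase type 1, made from Hsd11b1, regenerates active hormone inside cells.

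Sgk1 and Fkbp5 held that paired hexamer, AGAACA followed 3 bases later by TGTTCT, within 5000 bases of an annotated transcript start in the mm9 genome. Over protein-coding transcripts, 79 of 46006 start sites (0.172%) did, a share per start and not per gene. Genes with several starts have more chances, and the single Sgk1 copy lay that near to several Sgk1 starts. The Sgk1 copy lay in an intron at chr10:21713497-21713531 on the plus strand, its centre 182 bases before the start at position 21713696. In Fkbp5 it lay in an intron at chr17:28579354-28579388 on the minus strand, its centre 704 bases before the start at position 28578667. Both are shown 5′ to 3′ with the pair and its spacer in capitals, because they are the letters through which the receptor is known to act on such genes.
Sgk1: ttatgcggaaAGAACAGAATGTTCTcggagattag
Fkbp5: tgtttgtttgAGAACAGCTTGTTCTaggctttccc
The 250 bases before the outermost start are shown next for Tsc22d3 (chrX:137135199-137135448, minus strand) and Ddit4 (chr10:59414519-59414768, minus strand), the pair of targets that rose together in the males described below. Capitals mark the hexamer AGAACA or its reverse complement TGTTCT.
Tsc22d3: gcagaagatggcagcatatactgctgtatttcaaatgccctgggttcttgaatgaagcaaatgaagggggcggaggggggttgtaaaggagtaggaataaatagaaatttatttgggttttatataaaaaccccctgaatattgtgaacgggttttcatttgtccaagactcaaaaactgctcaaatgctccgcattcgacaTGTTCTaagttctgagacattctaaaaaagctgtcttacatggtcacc
Ddit4: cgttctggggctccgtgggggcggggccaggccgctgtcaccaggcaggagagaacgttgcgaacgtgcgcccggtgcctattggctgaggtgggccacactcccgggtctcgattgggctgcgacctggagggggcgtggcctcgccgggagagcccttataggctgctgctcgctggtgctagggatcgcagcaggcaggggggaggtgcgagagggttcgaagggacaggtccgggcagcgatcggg
The Tsc22d3 window held 1 hexamer and the Ddit4 window held 0, and 13.7% of all annotated start sites held at least 1 on either strand in a window of that length. The looser core ACANNNTGT, which 4.79% of such windows held and which the paired hexamer contains, was in neither of them. Before the other annotated starts of Tsc22d3, at positions 137082877 and 137077726, the windows held 1 and 0 hexamers. Which start was used cannot be read from counts per gene. A missing match says only that these letters are not in the window.

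Several measurements on the libraries bear on what follows. Total counts ran from 19150562 to 27513174 in the female and from 17845672 to 24787955 in the male libraries. One library labelled as male nicotine, replicate 21, held Xist at 219 CPM and the 4 Y-linked genes at 0.0473 CPM together, while the other 16 libraries labelled male held Xist at 0.0403 to 0.246 CPM and the Y-linked genes at 110 to 136 CPM. It goes against its label, so the male nicotine comparisons of the 9 transcripts are given with and without it. Levels, ranks and correlations over the male libraries include it. All 12 markers of cortical glutamatergic neurons were detected, but their summed level was lower in each exposed group than in air of the same sex, for instance 1307 to 2426 CPM without nicotine in males against 3335 to 3940 CPM in air, where summed myelin genes stood at 13907.5 to 23771.5 CPM against 9554 to 11687 CPM. In the order female nicotine, female no nicotine, male nicotine and male no nicotine, edgeR called 1, 10, 0 and 9 of the 12 cortical markers lower and 10, 9, 0 and 8 of 10 myelin genes, 6, 6, 0 and 6 of 6 cholinergic, 4, 2, 0 and 3 of 10 striatal, 0, 1, 0 and 2 of 6 hippocampal and 1, 1, 0 and 1 of 4 thalamic markers higher. Of 6 choroid plexus markers 3 were higher in males without nicotine, and of 8 immediate early genes 1 was lower in females without nicotine. Markers of astrocytes, microglia and endothelium and the 1 red blood cell marker tested had 0 calls in these comparisons. What part these shifts have in the results below was not tested beyond the covariate fit given there. In bulk tissue, fewer cells of a type and less RNA per cell cannot be told apart.

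Per kilobase of exon, the 9 transcripts spanned more than an order of magnitude in air and kept the same order in both sexes. Ddit4, an inhibitor of mTORC1 signalling, was highest at 38.7 ± 8.48 CPM per kb (SD, n = 6) in females and 35.2 ± 4.69 in males (n = 6), and Zbtb16, a zinc finger transcription factor, was lowest at 2.53 ± 0.483 and 2.32 ± 0.443. Nr3c1 came next after Ddit4 at 23.4 ± 1.7 CPM per kb in females and 22.4 ± 1.15 in males, and Nr3c2 stood last but one at 5.94 ± 0.553 and 6.36 ± 0.365. Between these lay Cdkn1a, Sgk1, Tsc22d3, Hsd11b1 and Fkbp5, in that order. The libraries of Cdkn1a and Sgk1, of Sgk1 and Tsc22d3, and of Fkbp5 and Nr3c2 overlapped in both sexes, as did those of Nr3c1 and Cdkn1a in females and of Tsc22d3 and Hsd11b1 in males, so those neighbours were not separated by their spread. Lengths count all annotated exons of a gene.

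**Figure D1:**
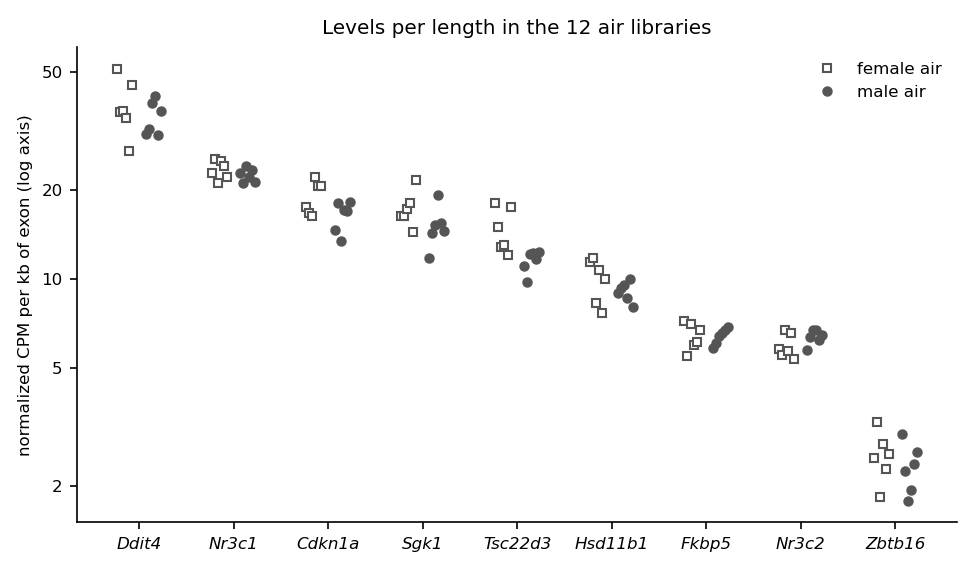
Normalized CPM per kb of exon (log axis) of the 9 transcripts in the 12 air libraries, 1 point per library, open squares for females and filled circles for males. Ddit4 libraries lie above the Nr3c1 libraries in both sexes, and Zbtb16 libraries lie below 4 CPM per kb.

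The glucocorticoid receptor transcript was lower in male offspring exposed without nicotine than in air, and it was the member in which those groups did not overlap. Nr3c1 (chr18:39570199-39650955, minus strand, mm9) stood at 157 (lowest), 167 (median) and 178 CPM (highest) in the 6 male air libraries and at 151, 140.0, 149.5, 151 and 141 CPM in replicates 2, 3, 4, 5 and 7 without nicotine. Each of the 5 exposed libraries lay below each air library. The fold was 0.879 (log2 fold change -0.19, SE 0.045), and Nr3c1 fell with an adjusted p of 0.00554 in edgeR's quasi-likelihood test, where p-values were adjusted over all genes and 0.01 was the threshold. An exact two-sided permutation test of its log2 CPM gave p = 0.00433, and 0.00216 is the smallest p that 6 against 5 libraries allow. With CPM on plain library totals the groups overlapped.

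In females the same transcript was lower by similar amounts without passing the threshold. Nr3c1 ranged from 157 to 189 CPM (median 174) in the 6 female air libraries, and stood at 157, 149, 169, 166 and 139 CPM with nicotine (replicates 1, 2, 3, 5 and 6) and at 152, 161, 142, 148 and 149 CPM without nicotine (replicates 1 to 5). With nicotine 3 of the 5 libraries, and without nicotine 4 of the 5, lay below every air library. Log2 fold changes were -0.16 (SE 0.0574, adjusted p = 0.0805 in edgeR) and -0.21 (SE 0.0574, adjusted p = 0.0143). Without nicotine, DESeq2 gave an adjusted p of 0.00402 and limma-voom one of 0.00954, and with a covariate for cortical marker level in edgeR the log2 fold change was -0.019 (adjusted p = 0.98). That covariate fit called 0 of all 15158 genes. Summed cortical markers did not overlap between female air (3551 to 4611 CPM) and no nicotine (1463 to 3301 CPM), so the fit cannot separate exposure from marker level. In males with nicotine Nr3c1 lay between 144 and 170.4 CPM (median 158), 2 of 6 libraries below every air library, with a log2 fold change of -0.08 (SE 0.0429, adjusted p = 0.385). Without replicate 21 that log2 fold change was also -0.08 (adjusted p = 0.459).

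The mineralocorticoid receptor transcript stayed near its air level in all 4 exposed groups. Nr3c2 (chr8:79423341-79768911, plus strand) ran from 34.7 to 43.4 CPM (median 37.3) in female air and from 37.1 to 43.5 CPM (median 41.4) in male air. Female libraries held 35.8, 38.4, 38.3, 41.4 and 31.9 CPM with nicotine and 36.8, 42.6, 37.1, 38.8 and 41.7 CPM without. Male libraries ranged from 39.2 to 45.3 CPM (median 41.6) with nicotine and held 45.2, 46.4, 36.1, 42.4 and 37 CPM without. The groups overlapped in each comparison, and log2 fold changes lay between -0.05 and 0.03 (adjusted p from 0.692 to 0.943 in edgeR). Without replicate 21 the male change with nicotine was 0.04 (adjusted p = 0.859). Taking 2 SE on each side, the interval of the change without nicotine ran from -0.11 to 0.18 for females and from -0.12 to 0.14 for males.

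Hsd11b1 (chr1:195047824-195090248, minus strand), which regenerates active corticosterone, was lower in each of the 4 exposed groups by an amount that did not pass the threshold in any of them. Air libraries ranged from 20.8 to 31.9 CPM (median 28.0) in females and from 21.7 to 27 CPM (median 24.8) in males. Without nicotine Hsd11b1 stood at 25.7, 17.8, 18.5, 25 and 19.9 CPM in females and at 18.1, 20.6, 17.1, 24.3 and 23.1 CPM in males, and 3 of 5 libraries in each sex lay below every air library. The log2 fold changes were -0.33 (SE 0.145, adjusted p = 0.103 in edgeR) and -0.26 (SE 0.0908, adjusted p = 0.0472). With nicotine Hsd11b1 held 22, 17.6, 26.6, 16.5 and 26.2 CPM in females and 18.9 to 24.7 CPM (median 21.5) in males. Those log2 fold changes were -0.31 (adjusted p = 0.177 in edgeR) and -0.19 (adjusted p = 0.331), the latter -0.16 without male replicate 21 (adjusted p = 0.482). With the cortical marker covariate the female change without nicotine was 0.038, in a fit that called 0 of all genes, and the other changes against air stayed negative. Exons of Hsd11b1 overlap 2 noncoding genes of the opposite strand, 1600010F14Rik and 4930570N18Rik, and exons of Nr3c2 overlap 1, Gm10649. Whether reads were counted by strand is not given in the sources used here, so reads of these partners cannot be told apart.

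Tsc22d3 (chrX:137074067-137135198, minus strand), which encodes the anti-inflammatory protein GILZ, had the largest change among the 9 transcripts in males exposed without nicotine. It ranged from 42.4 to 53.5 CPM (median 51.6) in male air and stood at 49.2, 82.1, 80.5, 105 and 94.4 CPM in replicates 2, 3, 4, 5 and 7 without nicotine. In all, 4 of the 5 exposed libraries lay above every air library, and replicate 2 lay inside the air range. Tsc22d3 rose 1.65-fold (log2 fold change 0.72, SE 0.133, adjusted p = 0.000767 in edgeR; exact permutation p = 0.0108). Male libraries with nicotine ranged from 46.0 to 61.7 CPM (median 51.4), a log2 fold change of 0.07 (SE 0.129, adjusted p = 0.852), which was 0.04 without replicate 21 (adjusted p = 0.931).

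In females Tsc22d3 was spread over a wide range within the exposed groups. It ranged from 52.2 to 78.4 CPM (median 60.7) in air, and stood at 53.8, 76.6, 60.4, 68.8 and 108 CPM with nicotine and at 58.5, 96.5, 96.8, 60.1 and 66.8 CPM without. Nicotine replicate 6 and no-nicotine replicates 2 and 3 lay above every air library, and the others did not. The log2 fold changes of 0.20 (SE 0.178, adjusted p = 0.503 in edgeR) and 0.24 (SE 0.178, adjusted p = 0.349) were within the spread between libraries.

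Ddit4 (chr10:59412423-59414518, minus strand), induced by glucocorticoids and by energy or oxygen shortage, rose along with Tsc22d3 in the males exposed without nicotine. It ranged from 51.7 to 70.1 CPM (median 58.1) in male air and stood at 65.0, 107, 91.8, 81.0 and 76.0 CPM without nicotine. Again 4 of 5 exposed libraries lay above every air library and replicate 2 did not. Ddit4 rose 1.42-fold (log2 fold change 0.50, SE 0.12, adjusted p = 0.00477 in edgeR; exact permutation p = 0.0108). Male nicotine libraries held 48.4 to 72.2 CPM (median 53.7; log2 fold change -0.06, adjusted p = 0.869, and -0.04 with adjusted p = 0.922 without replicate 21). In females Ddit4 ranged from 45.7 to 86.6 CPM (median 61.8) in air and stood at 64.0, 81.2, 71.3, 50.7 and 85.0 CPM with nicotine and 57.9, 88.2, 62.9, 57.5 and 65.4 CPM without, with log2 fold changes of 0.11 and 0.03 (adjusted p = 0.686 and 0.927 in edgeR).

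Fkbp5 and Sgk1, the pair of targets with the paired hexamer near a start site, were higher in males without nicotine by amounts short of the threshold. Fkbp5 (chr17:28536040-28654469, minus strand), which encodes the receptor's co-chaperone, ranged from 36.9 to 43.5 CPM (median 40.9) in male air and stood at 43.8, 53.7, 36.0, 65.3 and 48.5 CPM without nicotine. There, 4 of the 5 libraries lay above every air library and replicate 4 lay below every one (log2 fold change 0.29, SE 0.0992, adjusted p = 0.0421 in edgeR). Without replicate 4, Fkbp5 passed the threshold (log2 fold change 0.38, adjusted p = 0.00277), and without replicate 5 its log2 fold change was 0.17 (adjusted p = 0.141). Sgk1 (chr10:21601990-21719709, plus strand), for a kinase that regulates ion channels, ranged from 57.9 to 94.1 CPM (median 73.1) in male air and stood at 65.7, 147, 84.9, 99.6 and 94.4 CPM without nicotine. Of these, 3 of 5 lay above every air library, replicate 3 farthest (log2 fold change 0.41, SE 0.148, adjusted p = 0.0498). Without replicate 2, Sgk1 also passed (log2 fold change 0.53, adjusted p = 0.00863), without replicate 3 its log2 fold change was 0.22 (adjusted p = 0.199), and with the cortical marker covariate it was 0.088 (adjusted p = 0.896). That covariate fit called 0.085% of all genes.

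With nicotine in males, Fkbp5 ran from 39.8 to 43.0 CPM (median 41.8; log2 fold change 0.05, adjusted p = 0.879) and Sgk1 from 62.6 to 80.8 CPM (median 68.5; log2 fold change -0.08, adjusted p = 0.853). Both groups lay inside the range of air. Without replicate 21 these log2 fold changes were 0.05 (adjusted p = 0.903) and -0.06 (adjusted p = 0.920). In females, Fkbp5 ranged from 34.8 to 45.5 CPM (median 40.5) in air and stood at 37, 46.3, 43.1, 45.8 and 53.2 CPM with nicotine and 37.8, 39, 49.6, 43.8 and 41.5 CPM without. Female Sgk1 ranged from 70.8 to 106 CPM (median 82.3) in air and stood at 64.0, 102, 92.6, 68.8 and 120.4 CPM with nicotine and 71.3, 106, 65.6, 72.3 and 72.6 CPM without. Groups overlapped throughout, and none of these 4 female comparisons had an adjusted p below 0.292 in edgeR.

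Zbtb16 (chr9:48462416-48644050, minus strand), for a transcription factor strongly induced by glucocorticoids in many tissues, showed a female pattern that turned on 1 library. It ranged from 9.38 to 16.7 CPM (median 12.8) in female air and stood at 10.6, 6.95, 8.45, 7.32 and 8.61 CPM with nicotine and at 7.90, 8.54, 18.2, 7.77 and 6.44 CPM without. In each exposed group 4 of 5 libraries lay below every air library, and no-nicotine replicate 3 lay above every one. Log2 fold changes were -0.62 (SE 0.222, adjusted p = 0.0734 in edgeR; exact permutation p = 0.00866) and -0.40 (SE 0.217, adjusted p = 0.199). Summed choroid plexus markers (6 genes) reached 284 CPM in that replicate 3 and 325 CPM in air replicate 3, against at most 109 CPM in the other female libraries. With these 2 libraries left out, a choice made after the values were seen, Zbtb16 fell in both groups (log2 fold change -0.70, adjusted p = 0.00323, and -0.83, adjusted p = 0.0033). Leaving out no-nicotine replicate 3 alone also gave a call in both (adjusted p = 0.00792 with and 0.00431 without nicotine).

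In males Zbtb16 did not move in one direction. It ranged from 9.07 to 15.3 CPM (median 11.8) in air and from 7.96 to 13.2 CPM (median 10.2) with nicotine, and it stood at 7.90, 9.94, 8.90, 16.9 and 25.9 CPM without nicotine. Replicates 5 and 7 lay above every air library and replicates 2 and 4 below every one, so the log2 fold change of 0.22 (SE 0.242, adjusted p = 0.559 in edgeR) was within the spread. Replicate 7 had 946 CPM of summed choroid plexus markers, against at most 52.1 CPM in the other male no-nicotine libraries and 39.3 CPM in air. Without replicate 7 the log2 fold change was -0.13 (adjusted p = 0.669). With nicotine it was -0.21 (adjusted p = 0.740), and -0.30 without replicate 21 (adjusted p = 0.655).

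Cdkn1a (chr17:29227924-29237667, plus strand), which encodes the cell cycle inhibitor p21, was lower in females without nicotine than in air at an adjusted p between 0.01 and 0.05. It ranged from 36.4 to 49.1 CPM (median 42.3) in female air and stood at 42.0, 31.7, 30.9, 33.5 and 27.6 CPM without nicotine, 4 of 5 libraries below every air library (log2 fold change -0.35, SE 0.107, adjusted p = 0.0249 in edgeR). Replicate 1 lay among the air libraries. The adjusted p was 0.00246 without it, up to 0.0724 when another library was left out, and 0.89 with the cortical marker covariate (log2 fold change -0.16). That covariate fit called 0 of all 15158 genes, so it says nothing particular about Cdkn1a. With nicotine Cdkn1a held 38.1, 45.9, 41.1, 34.0 and 45.1 CPM (log2 fold change -0.05, adjusted p = 0.812). In males it ranged from 29.8 to 40.5 CPM (median 37.9) in air and from 28.2 to 37.8 CPM (median 34.2) with nicotine, and held 29.4, 38.9, 45.2, 35.2 and 39.8 CPM without. Its male log2 fold changes were -0.13 (adjusted p = 0.610, and -0.17 with adjusted p = 0.517 without replicate 21) and 0.05 (adjusted p = 0.782).

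**Figure D2:**
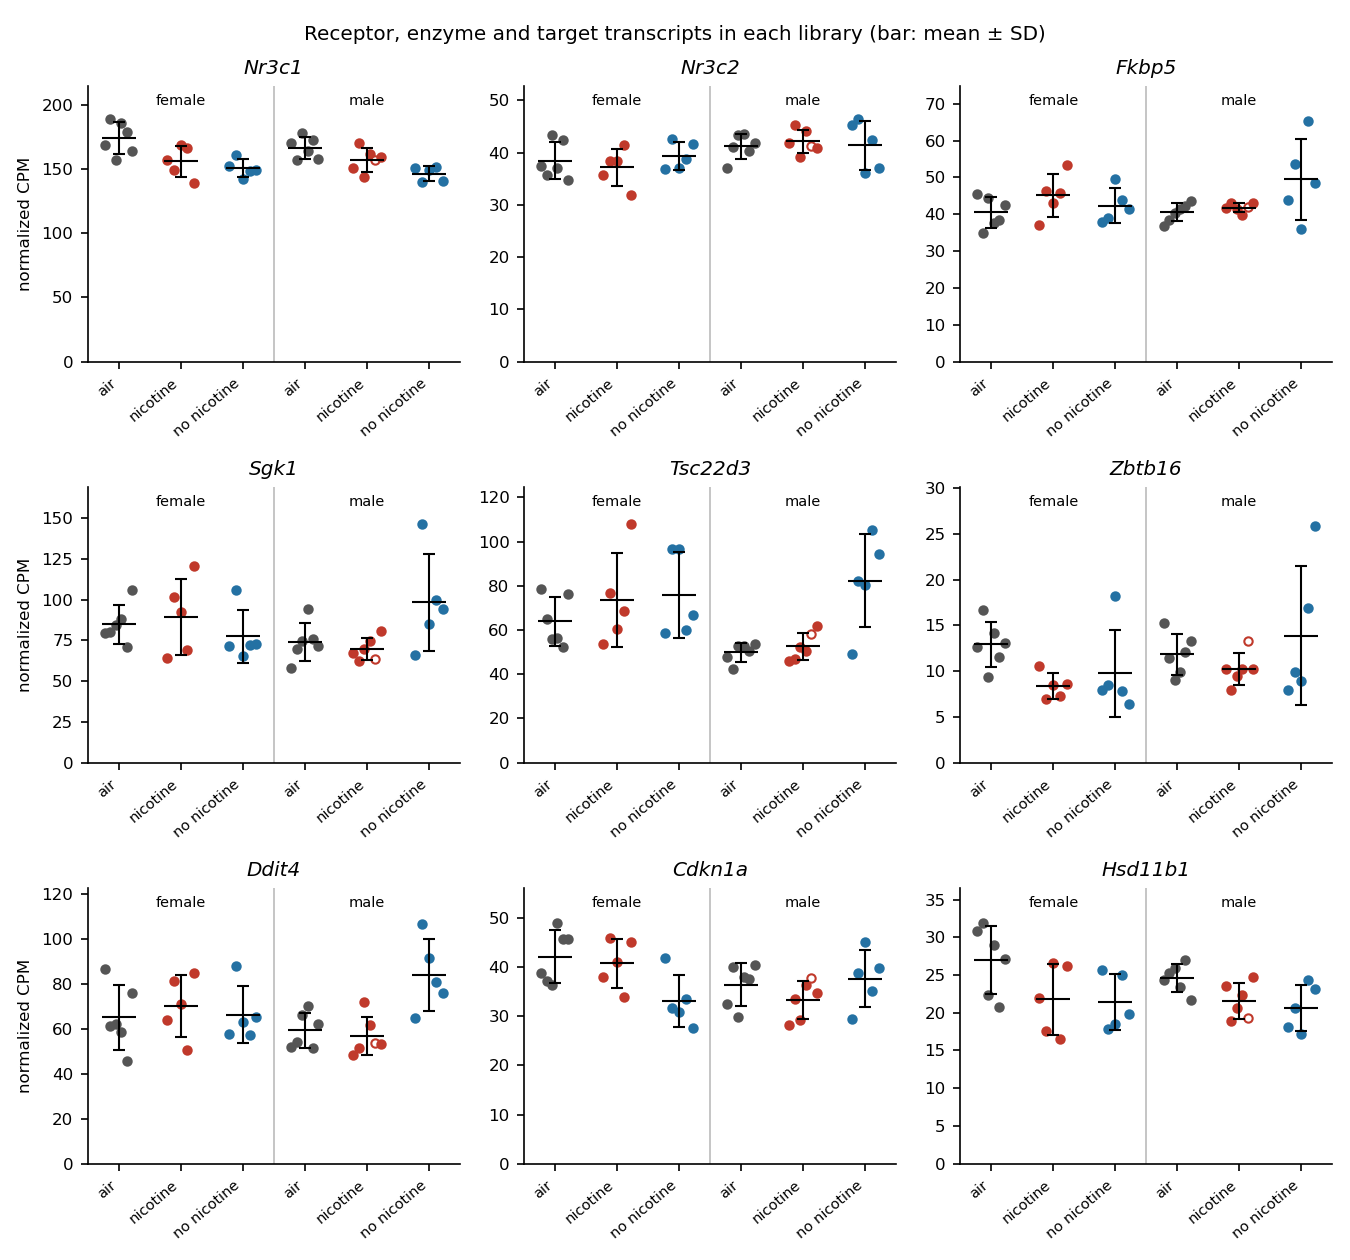
Normalized CPM of each transcript (axes from 0), 1 point per library, for air (grey), nicotine (red) and no nicotine (blue) in females and males; bars give the mean ± SD and the open circle is male nicotine replicate 21. For Tsc22d3 and Ddit4, 4 of 5 male no-nicotine libraries lie above the male air libraries, and for Nr3c1 all 5 lie below them.

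Counted together, 3 of the 9 transcripts passed the threshold in males without nicotine, 2 higher and 1 lower, where 13.6% of all 15293 genes tested were called. In that comparison 6 of the 9 had an adjusted p below 0.05, where 24.7% of all genes did, and the median of the 9 log2 fold change was 0.22 against 0.02 over all genes. Of the 9, 1 had groups that did not overlap, where 12.4% of all genes did. DESeq2 and limma-voom called the same 3 transcripts, and 17.2% and 15.2% of all genes. The call of Nr3c1 or Ddit4 was lost when male air replicate 30, 31, 33 or 38 or no-nicotine replicate 3, 4 or 7 was left out, while Tsc22d3 was called each time 1 library was left out. Without air 30, air 38 or no-nicotine 3, 1 of 9 was called, and 12.9%, 9.98% and 10.6% of all genes.

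Beside that count stand the composition values given above, and an alternative fit bears on them directly. With the mean log2 CPM of the cortical glutamatergic markers as a covariate, 0 of 9 were called in males without nicotine, but only 13 of all 15293 genes (0.085%) were, so the count says nothing particular about the 9. Tsc22d3 then had a log2 fold change of 1.05 (adjusted p = 0.0522 in edgeR), Ddit4 one of 0.22 (adjusted p = 0.618) and Nr3c1 one of -0.14 (adjusted p = 0.428). The score and the exposure are nearly aligned in these libraries, since the ranges of summed marker level in male air and without nicotine do not overlap.

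In the other 3 comparisons with air, edgeR called 0 of the 9. Among all genes it called 4.29% for female nicotine, 12.1% for female no nicotine and 0% for male nicotine. At an unadjusted p below 0.05 the counts of members were 3, 3 and 1, where 28.1%, 36.4% and 14.4% of all genes passed. DESeq2 called 0, 1 and 0 of the 9 and limma-voom 0, 2 and 0, the calls being Nr3c1 by both tools and Cdkn1a by limma-voom. Of all genes in the female comparisons, DESeq2 called 8.7% with and 17.1% without nicotine, and limma-voom 6.68% and 17.1%. Across all genes in males with nicotine, 2203 had an unadjusted p below 0.05, DESeq2 called 159 and limma-voom 0, and without replicate 21 edgeR again called 0. No member had non-overlapping groups in these comparisons, where 6.67%, 10.7% and 2.05% of all genes did. The medians over the 9 log2 fold changes were -0.05, -0.13 and -0.08.

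**Figure D3:**
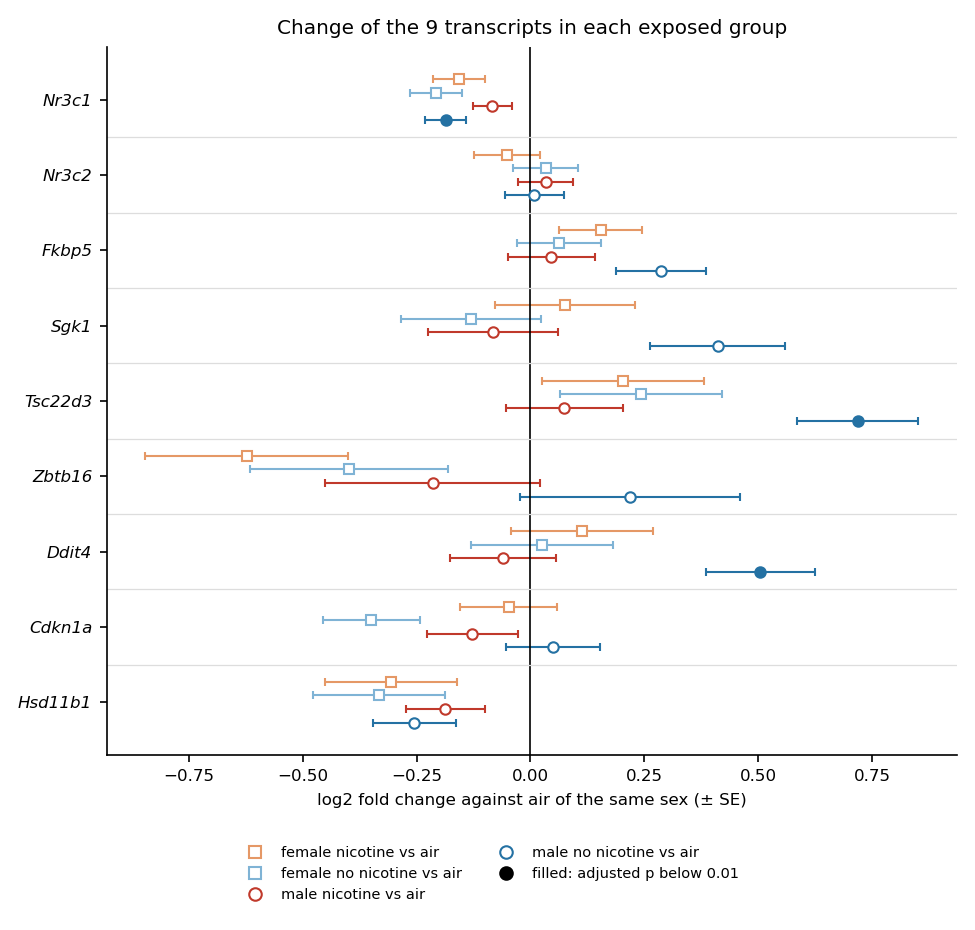
Log2 fold change against air of the same sex (± SE, edgeR) of the 9 transcripts; squares are females, circles are males, and filled symbols have an adjusted p below 0.01. Filled symbols are Nr3c1, Tsc22d3 and Ddit4 in males without nicotine, and Hsd11b1 lies left of 0 in all 4 comparisons.

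The exposed groups were also compared directly, with against without nicotine. By the study's methods the mean particulate level was higher in the aerosol without nicotine, so nicotine content and particulate level cannot be told apart. In males, summed cortical markers ran from 2349 to 3222 CPM with and from 1307 to 2426 CPM without nicotine, and the part this had was not tested. In males, Tsc22d3 (log2 fold change -0.64 with against without nicotine, SE 0.133, adjusted p = 0.0179), Ddit4 (-0.56, SE 0.12, adjusted p = 0.0194) and Sgk1 (-0.49, SE 0.149, adjusted p = 0.0709) were lower with nicotine. None of the 9 passed the 0.01 threshold in edgeR, where 0.248% of all genes did. At an unadjusted p below 0.05 there were 5, where 20.1% of all genes passed. DESeq2 called 2, Tsc22d3 and Ddit4, and 2.99% of all genes, while limma-voom called 0 and 0.386%. Without no-nicotine replicate 2, edgeR called the same pair and 0.657% of all genes. Leaving out replicate 21, the library that goes against its label, gave adjusted p-values of 0.0293 for Tsc22d3, 0.0415 for Ddit4 and 0.129 for Sgk1, and 5 calls among all genes in place of 38. That drop was not particular to replicate 21. The count was also 5 without nicotine replicate 16, 17 or 22, 0 without no-nicotine replicate 3 or 5, and 246 without nicotine replicate 19. In females 0 of 9 passed and 0% of all genes did, with 1 member at an unadjusted p below 0.05 (Cdkn1a, log2 fold change 0.30, adjusted p = 0.574) and 0 calls of members or genes by DESeq2 or limma-voom. Of all genes in that comparison, 1267 had an unadjusted edgeR p below 0.05.

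The difference between the sexes was tested as an interaction over the 15105 genes that passed the filter in both tables. For exposure without nicotine, the male change exceeded the female change by 0.54 in Sgk1 (SE 0.226), by 0.47 in Ddit4 (SE 0.208) and by 0.39 in Cdkn1a (SE 0.156), all log2 and each with an adjusted p of 0.945. For Tsc22d3 the difference was 0.47 (SE 0.235, adjusted p = 0.945), so its call in males alone does not show that the sexes differed. edgeR called 0 of 9 and 0% of all genes in this test and in that for nicotine, where 3 and 0 members had an unadjusted p below 0.05. DESeq2 called 0 members in both, with 4 and 0 at an unadjusted p below 0.05, and 0 and 1 of all genes, and limma-voom called 0 throughout. Without replicate 21, edgeR called 0 members and 0 genes in both. Of all genes, 742 and 978 had an unadjusted edgeR p below 0.05.

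Ranked over all libraries of a sex, with the differences between groups kept in, the 4 transcripts Fkbp5, Sgk1, Tsc22d3 and Ddit4 were high together in some libraries. The other targets, Zbtb16 and Cdkn1a, were not part of this ranking. Among the 17 libraries labelled male, no-nicotine replicates 3, 5 and 7 were among the 4 highest for all 4 transcripts, replicate 4 for 2 and replicate 2 for 1. No air or nicotine library labelled male was among them for more than 1. Among the 16 female libraries, nicotine replicate 6 was among the 4 highest for all 4, and nicotine replicate 2 and no-nicotine replicate 2 for 3 each. Female air replicate 1 and no-nicotine replicate 3 reached 2. This ranking is a description of libraries and was made after their values were seen.

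**Figure D4:**
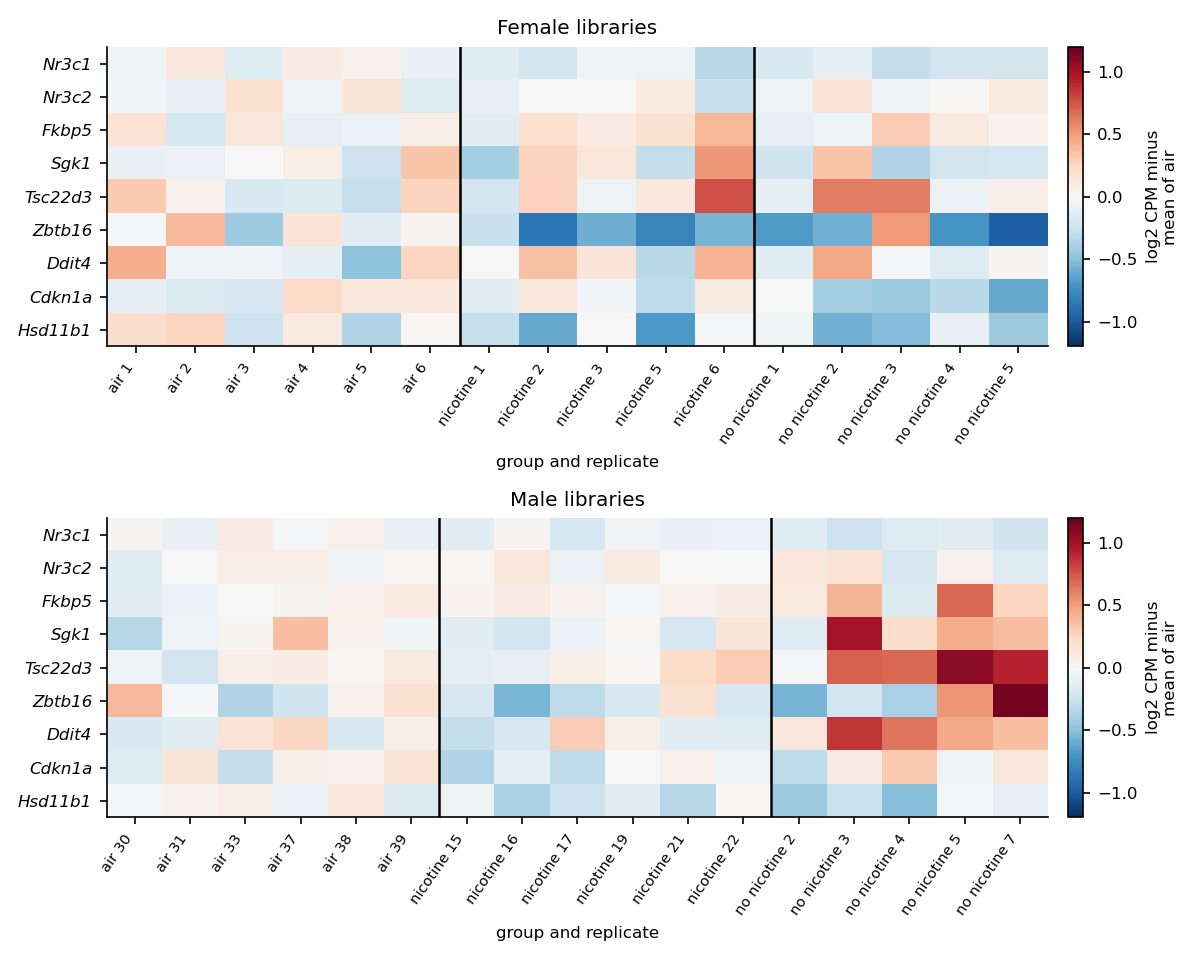
Log2 CPM of each transcript in each library minus the mean of the air libraries of the same sex (red higher, blue lower), with black lines between groups. Male no-nicotine replicates 3, 5 and 7 are red for Fkbp5, Sgk1, Tsc22d3 and Ddit4, and replicate 2 is pale for Tsc22d3.

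To take the group means out, deviations of log2 CPM from each group's mean were correlated between the 6 targets, 15 pairs per sex. In females Sgk1 and Ddit4 varied together (Pearson's r = 0.74, permutation p = 0.00246, adjusted p = 0.0277; Spearman's rho = 0.74, permutation p = 0.00241, adjusted p = 0.0361), and without the 2 libraries farthest from the Sgk1 median r was 0.62. Tsc22d3 and Ddit4 followed (r = 0.70, permutation p = 0.00369, adjusted p = 0.0277; rho = 0.67, permutation p = 0.00773, adjusted p = 0.058), with r = 0.77 without the 2 farthest. Fkbp5 and Sgk1, both ranked above, did not pass in females (r = 0.29, permutation p = 0.358, adjusted p = 0.671), and r was -0.16 without the 2 farthest. In males 0 of 15 pairs passed 0.05 after adjustment. There Fkbp5 and Ddit4 had an r of 0.08, and Zbtb16 and Ddit4 one of -0.23. Of the 15 pairs, r was positive for 11 in females and 13 in males. The largest male r was 0.68, for Sgk1 and Ddit4 (permutation p = 0.00982, adjusted p = 0.147; rho = 0.55, permutation p = 0.0433, adjusted p = 0.162), and it was 0.40 without no-nicotine replicates 2 and 3.

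The genes whose log2 CPM followed each transcript most closely were ranked by the lower of the Pearson correlations over the 16 female and the 17 male libraries, which share exposure and tissue composition. For Tsc22d3 these were Adipor2 (r = 0.86 in females and 0.94 in males) and Sdc4 (0.84 and 0.94), and Adipor2 was first for Fkbp5 too (0.74 and 0.81), followed by the clock output gene Dbp (0.69 and 0.74). For Ddit4 they were F3 (0.85 and 0.86) and 8430408G22Rik (0.85 and 0.89), and for Sgk1 8430408G22Rik (0.75 and 0.79) and the kinase gene Pim3 (0.74 and 0.83). Nr3c1 was followed most closely by Dpp8 (0.83 and 0.81) and Dyrk2 (0.84 and 0.81), and Nr3c2 by Akap11 (0.76 and 0.82) and Tmed7 (0.75 and 0.74). For Zbtb16 they were Kcnn2 (0.87 and 0.83) and Capn5 (0.71 and 0.81), for Cdkn1a Hs3st3a1 (0.65 and 0.72) and Bcl6 (0.81 and 0.64), and for Hsd11b1 Spg7 (0.90 and 0.88) and Zmiz2 (0.88 and 0.85). These are descriptions without a test.

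Other genes of the pathway were read from 3 lists. Among 13 receptor chaperones and coregulators, 0 rose and 3 fell without nicotine in each sex, and 0 were called with nicotine in either sex. Over all genes, edgeR called 12.1% in females and 13.6% in males without nicotine, and 4.29% and 0% with nicotine. The 3 were the corepressor Ncor1 and the coactivators Ncoa1 and Ncoa2. Ncor1 went from 148 ± 7.18 CPM in female air (SD, n = 6) to 123 ± 8.78 (n = 5; log2 fold change -0.27, adjusted p = 0.00133 in edgeR) and from 179 ± 8.88 in male air (n = 6) to 148 ± 7.16 (n = 5; -0.28, adjusted p = 0.000211). Ncoa2 fell by 0.21 in females and 0.24 in males on the log2 scale (adjusted p = 0.00891 and 0.000505), and Ncoa1 fell by 0.19 and 0.21 (adjusted p = 0.00442 and 0.000684). The heat shock protein genes of the list, Hsp90aa1, Hsp90ab1 and Hspa8, were among those not called. List medians without nicotine were -0.08 in both sexes on the log2 scale, against 0.01 and 0.02 over all genes.

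Of 22 other glucocorticoid-induced genes, 21 were tested, and different genes were called in the sexes without nicotine. In males 5 rose and 0 fell, and in females 0 rose and 2 fell. Over all genes, 13.6% were called in males (941 higher, 1143 lower) and 12.1% in females (763 higher, 1066 lower). In males the metallothionein genes Mt2 (92.3 ± 6.35 to 135 ± 23.7 CPM, log2 fold change 0.55, adjusted p = 0.000308 in edgeR) and Mt1 (0.29, adjusted p = 0.00657), the transcription factor gene Klf15 (0.44, adjusted p = 0.00194), the connexin 30 gene Gjb6 (0.40, adjusted p = 0.00847) and Angptl4 (0.62, adjusted p = 0.00896), which was named after its value was seen, rose. Without replicate 21, left out after the data were seen, Angptl4 had an adjusted p of 0.0103 and the other 4 were called. In females the transcription factor genes Klf9 (222 ± 19.1 to 169 ± 8.65 CPM, log2 fold change -0.39, adjusted p = 0.000934) and Bcl6 (-0.28, adjusted p = 0.00717) fell. In the other sex, the estimates were 0.03 for Klf9 and 0.10 for Bcl6 in males (adjusted p = 0.897 and 0.531), and the 5 male genes had positive estimates in females, 0.44 for Angptl4, 0.24 for Gjb6, 0.21 for Mt2, 0.19 for Klf15 and 0.12 for Mt1 (adjusted p from 0.0761 to 0.249). None of these genes was called in the test of the difference between the sexes. None of the 21 was called with nicotine against air in either sex, where 4.29% of all genes were in females and 0% in males. Klf15 was lower with than without nicotine in males (-0.52, adjusted p = 0.00923), a call that was lost without replicate 21 (-0.51, adjusted p = 0.0232). List medians without nicotine were 0.19 in males and -0.08 in females.

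Of 13 genes of the corticotropin-releasing hormone (CRH) system and of steroid handling, 11 were tested. The CRH receptor gene Crhr1 fell without nicotine in both sexes, from 23.0 ± 4.82 to 13.3 ± 2.52 CPM in females (log2 fold change -0.79, adjusted p = 0.00114 in edgeR) and from 20.03 ± 2.25 to 14.98 ± 1.39 CPM in males (-0.42, adjusted p = 0.00582). With nicotine its estimate was -0.58 in females (adjusted p = 0.011) and -0.09 in males (adjusted p = 0.723), or -0.14 without replicate 21 (adjusted p = 0.56). Srd5a1, which encodes a steroid 5α-reductase, rose in females with nicotine (22.7 ± 0.799 to 28.5 ± 2.82 CPM, 0.33, adjusted p = 0.00356). Ucn3, a CRH family peptide gene, passed the threshold upward in females without nicotine (adjusted p = 0.00177), at 0.367 to 1.117 CPM against 0 to 0.206 CPM in air, or at most 27 counts in a library. The same comparisons held the shifts in cortical and myelin markers given above.

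**Figure D5:**
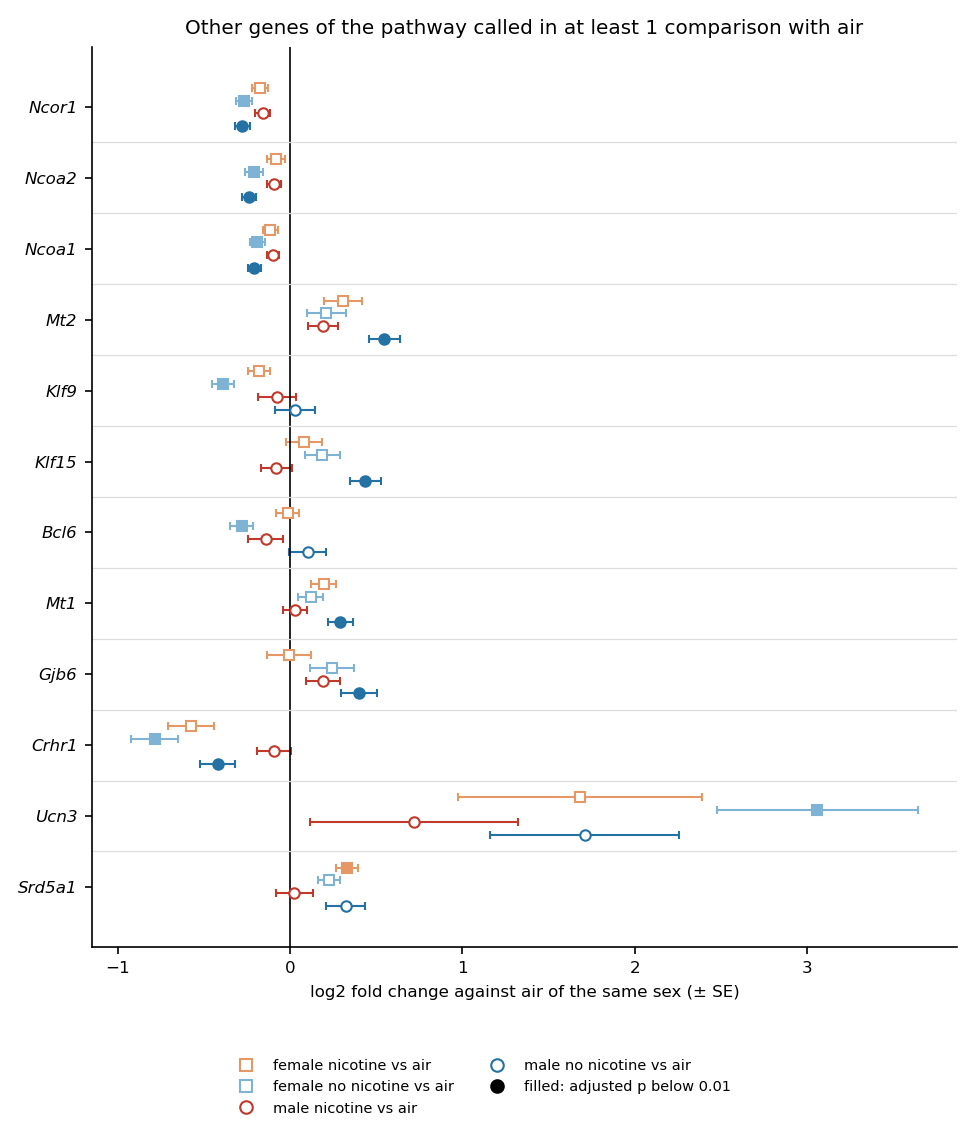
Log2 fold change against air of the same sex (± SE, edgeR) for the 12 named genes of the 3 lists; squares are females, circles are males, and filled symbols have an adjusted p below 0.01. Ncor1, Ncoa1, Ncoa2 and Crhr1 are filled and left of 0 without nicotine in both sexes, while Mt1, Mt2, Klf15 and Gjb6 are filled and right of 0 in males without nicotine.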

How the data were processed

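The authors deposited raw read counts per gene for females and males, made from single reads aligned to the mm9 transcriptome with Bowtie, with PCR duplicates removed by SAMtools and counted with HTSeq. Their normalized tables were not used. Of 34 count columns, 1 matched no sample label and was left out. Counts were analysed with edgeR 4.0.16 (TMM scaling, quasi-likelihood test, a fit of the 3 groups of each sex) in R 4.3.3, with Benjamini-Hochberg adjustment over all genes tested and a threshold of 0.01. Printed CPM are TMM-scaled, and intervals are 2 SE on each side. DESeq2 1.42.0 and limma 3.58.1 (voom) were alternatives, as were other scalings, filters, a cortical marker covariate and leaving out each library. Single values were tested by exact permutation. On simulated counts, edgeR recovered 61% of genes changed by 0.5 on the log2 scale in the comparison without nicotine of females (15158 genes) and 61% in that of males (15293 genes). Removing duplicates from single reads caps the counts of short, abundant transcripts. Ddit4 had 1636 distinct 50-base windows per strand and up to 2457 counts in a library, so its level and its rise may be understated. Gene models, exon lengths and sequences came from mm9 with GENCODE M1. Of each list of pathway genes, up to 6 called in a comparison with air were named, by smallest p, with all 9 members and the 2 most correlated genes of each. The members and lists were chosen with earlier results of these data known.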

Additional observations from a re-analysis of the deposited data

Results flagged for a closer look

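Of 54 groups of values screened (9 transcripts in 6 groups), 3 held a library whose gap to its nearest neighbour was large for the range of its group, where chance gives about 1 in 20. All 3 were female libraries exposed without nicotine. Sgk1 stood at 106 CPM in replicate 2, and the nearest library of the group stood at 72.6 CPM. Ddit4 stood at 88.2 CPM in the same replicate, with the nearest at 65.4 CPM. Zbtb16 stood at 18.2 CPM in replicate 3, with the nearest at 8.54 CPM, and summed choroid plexus markers were 284 CPM in that library against at most 43.1 CPM in the other 4 of its group.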

How the results depend on the processing

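The count of transcripts called against air in males without nicotine (3) was 6 at a threshold of 0.05 (24.7% of all genes) and 0 with the cortical marker covariate (0.085% of all genes). It ran from 1 to 4 when each library was left out in turn (9.98% to 14.3% of all genes). The count of non-overlapping members there (1) was 0 with CPM on library totals. In females without nicotine the count (0) was 2 at a threshold of 0.05 (25% of all genes), 1 with DESeq2 (17.1%) and 2 with limma-voom (17.1%). It was 1 with only the groups compared (10.8%) and 1 without the libraries high in choroid plexus genes (5.72%), which were chosen after seeing the data. When each library was left out it was 0 to 1 (5.46% to 16.6%). In females with nicotine (0) it was 1 without those libraries (3.78% of all genes) and 0 to 1 when each library was left out (1.5% to 6.17%). Between male nicotine and no nicotine (0) it was 2 at a threshold of 0.05 (3.56% of all genes), 2 with DESeq2 (2.99%) and 0 to 2 when each library was left out (0% to 1.62%). The cause was not tested.

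Log2 fold changes that turned direction follow. With limma-voom these were Sgk1 (-0.031, female nicotine), Hsd11b1 (-0.030, female nicotine against no nicotine), Zbtb16 (-0.053, male no nicotine) and Hsd11b1 (-0.00139, sex difference without nicotine). With the cortical covariate they were, for female nicotine, Fkbp5 (-0.087), Sgk1 (-0.17), Tsc22d3 (-0.35), Ddit4 (-0.20) and Cdkn1a (0.089), for female no nicotine Nr3c2 (-0.012), Fkbp5 (-0.29), Tsc22d3 (-0.55), Ddit4 (-0.44) and Hsd11b1 (0.038), and for female nicotine against no nicotine Nr3c1 (-0.012), Tsc22d3 (0.20) and Hsd11b1 (-0.081). In males they were Nr3c2 (-0.063) and Zbtb16 (0.26) with nicotine, Nr3c2 (-0.21) without and Hsd11b1 (-0.020) between these, and Nr3c1 (-0.011) in the sex difference without nicotine. Without the libraries high in choroid plexus genes, Tsc22d3 (0.064), Zbtb16 (0.13) and Hsd11b1 (-0.021) turned between female nicotine and no nicotine.

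When each library was left out, estimates that crossed 0 ranged as follows: for female nicotine Sgk1 -0.054 to 0.18, Cdkn1a -0.093 to 0.011 and Nr3c2 -0.094 to 0.000689, for female no nicotine Fkbp5 -0.00153 to 0.094 and Ddit4 -0.096 to 0.12, and for female nicotine against no nicotine Tsc22d3 -0.22 to 0.064, Hsd11b1 -0.052 to 0.12 and Zbtb16 -0.34 to 0.13. In males Nr3c2 ranged from -0.037 to 0.053, Cdkn1a from -0.029 to 0.13 and Zbtb16 from -0.13 to 0.37 without nicotine, and Nr3c2 from -0.018 to 0.071 between nicotine and no nicotine. In the sex differences Tsc22d3 ranged from -0.23 to 0.049 with nicotine, and Nr3c1 from -0.0061 to 0.045 and Nr3c2 from -0.075 to 0.013 without.

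Female groups shared replicate numbers, but of 14 same-number pairs 4 had deviations correlated above 0.1, so the numbers did not pair the animals. With the replicate block 0 transcripts were called in each of the 3 female comparisons. Of all genes, 0.897% were called for nicotine against air, 4.86% for no nicotine against air and 0% between the exposed groups. Ddit4 between nicotine and no nicotine was then -0.024. In males the groups shared too few numbers for such a fit.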
